A study of Mus musculus with 10 samples.

Results

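Tumor-associated macrophages (TAM) with and without myeloid deletion of SHP-2 were compared by RNA sequencing on day 15 of growth of the mouse fibrosarcoma line MC17-51. The comparison used 6 of the 10 samples of the series, 3 TAM libraries from Shp2f/f mice and 3 from Shp2f/fLysMcre mice, and the other 4 samples were myeloid-derived suppressor cells, which are not used here. All mice carried floxed alleles of Ptpn11, the gene for SHP-2, and a subcutaneous tumor of the same line. Shp2f/fLysMcre mice also carried Cre recombinase inserted into Lyz2, the lysozyme M gene, so that excision takes place in cells that use this promoter, which include macrophages and granulocytes as well as monocytes. TAM were sorted from digested tumors as live CD45+CD11b+F4/80+Ly6G- cells. The mice were young adults of both sexes, and the sources do not give the sex of the mice behind each library or say whether a library held cells of 1 mouse, so n counts libraries and p-values measure the spread between them. Members of the comparison were the 14446 genes that passed a filter on low counts, of 55421 in the deposited table, and 44 gene lists on maturation, stress, translation, metabolism and antigen presentation were described in depth.

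SHP-2 is a cytosolic tyrosine phosphatase that is recruited to receptors for growth factors and cytokines, where it helps to relay signals to RAS and ERK, and to inhibitory receptors such as PD-1, where it dampens signaling. In the myeloid lineage the receptors for M-CSF (Csf1r) and GM-CSF (Csf2ra and Csf2rb) guide the passage from progenitor to monocyte and macrophage, and transcription factors such as PU.1, IRF8 and c-MAF fix the mature state. Macrophages in tumors are fed by blood monocytes, and they take up lipid, iron and dying cells, present peptides on MHC molecules and adapt their metabolism to low oxygen and scarce amino acids.

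Total counts were 28844660 to 38222998 per TAM library. Expression is given as CPM, the number of counts per 1000000 counts of the library, with library sizes scaled by TMM, which compares libraries on the bulk of their genes. A gene was called where the edgeR quasi-likelihood test gave a Benjamini-Hochberg adjusted p under 0.05 over all tested genes. By this rule 3452 genes (23.9%) were higher and 3805 (26.3%) lower in Shp2f/fLysMcre TAM. The libraries of the genotypes did not overlap for 8410 of the 14446 tested genes (58.2%), so a lack of overlap is common here. With a log2 fold change of at least 0.58 as well, which is about 1.5-fold, 707 genes (4.89%) were higher and 1245 (8.62%) lower. Most called differences were thus small, with a median absolute log2 fold change of 0.367 among the called genes. The libraries of a group were close, with a biological coefficient of variation of 0.0595. The median over all tested genes was -0.013. Scaling by total counts lowered this median to -0.111 and moved the split to 2342 higher and 5227 lower, so small rises and falls depend on the scaling. The counts of each gene list are read against the shares of all genes. As the lists were chosen with earlier results of these data known, their shares are descriptions and no test of a list.

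The sorted cells carried macrophage markers in all 6 libraries. Summed over Adgre1, Itgam, Ptprc, Csf1r, Cd68, Fcgr1 and Mertk, these reached 4870 to 4940 CPM of the total count in Shp2f/f and 5660 to 5740 in Shp2f/fLysMcre. Transcripts of other cells were present, and several lists differed between the genotypes. In bulk RNA, fewer cells of a type and less RNA per cell cannot be told apart. The T cell list gave 16.6 to 19.2 CPM of the total count in Shp2f/f against 8.89 to 10 in Shp2f/fLysMcre. Of its 9 tested members 7 were called lower. The NK cell list gave 23 to 26 against 9.09 to 10.5, with 6 of 6 called lower. The fibroblast and fibrosarcoma list gave 312 to 318 against 269 to 277. Of its 13 tested members 5 were called lower and 2 higher. Neutrophil genes summed to 303 to 315 against 439 to 465 with 5 of 8 called higher, and Ly6g itself, the marker gated against, was at most 0.288 CPM of the total count in every library. Hormone and granule genes of the pancreatic islet summed to 1290, 847 and 6690 CPM of the total count in the Shp2f/f libraries and 73.9, 5.83 and 5.75 in the Shp2f/fLysMcre libraries. Keratin genes reached 86.8 CPM of the total count in Shp2f/fLysMcre replicate 3 and at most 1.25 elsewhere. The endothelial list gave 73.6 to 77.4 in Shp2f/f against 107 to 113 in Shp2f/fLysMcre, with 3 of 4 tested members called higher. In the plasma cell list 3 of 4 tested members were called higher and 1, Sdc1, lower. Igha had 2, 0 and 2 counts in Shp2f/f and 76, 174 and 177 in Shp2f/fLysMcre. Reads of mitochondrial genes were 1.04% to 1.1% of the total in Shp2f/f but 0.552%, 0.893% and 0.937% in Shp2f/fLysMcre replicates 1, 2 and 3. Xist was 4.84 to 18.5 CPM of the total count in Shp2f/f and 192 to 350 in Shp2f/fLysMcre, and 4 genes of the Y chromosome (Uty, Kdm5d, Ddx3y and Eif2s3y) were called lower. Ddx3y was 82.1 to 87.3 against 35.4 to 42.2 CPM of the total count, so Xist and Y transcripts were both clear in every Shp2f/fLysMcre library. Such a library can be a pool of several mice, and the spread between pools can be smaller than that between mice. The makeup of the libraries by sex thus differed, and its part in a result cannot be told apart from that of the genotype. The part of the other transcripts in the results was not tested, and values without each library are given where a result moves.

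The targeted gene was checked first. Ptpn11 (ENSMUSG00000043733, GRCm38 chromosome 5, 121130533 to 121191397, minus strand) was 119, 122 and 119 CPM in the Shp2f/f libraries and 48.8, 51.6 and 51.9 CPM in the Shp2f/fLysMcre libraries. It fell in all Shp2f/fLysMcre libraries to 42.2% of the mean of the Shp2f/f libraries (log2 fold change -1.24, SE 0.0386, edgeR adjusted p = 2.96e-09), and as reads are counted over the whole gene, RNA from an excised allele can still be counted. Lyz2 (ENSMUSG00000069516, GRCm38 chromosome 10, 117277331 to 117282321, minus strand), the site of the Cre insertion, was 3410, 3571 and 3393 CPM in the Shp2f/f libraries and 12.1, 10.9 and 9.04 CPM in the Shp2f/fLysMcre libraries. The drop followed the label in every library (log2 fold change -8.33), and as the Cre sits in this gene, its level is no measure of maturation here. The genotypes thus differed in Cre and Lyz2 as well as in Ptpn11, and their parts in a result cannot be told apart. The neighboring paralog Lyz1 moved the other way (2.8, 1.83 and 3.04 CPM in Shp2f/f and 78.6, 71.7 and 68.6 CPM in Shp2f/fLysMcre), and reads that match both lysozyme genes make these counts uncertain.

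**Figure D1:**
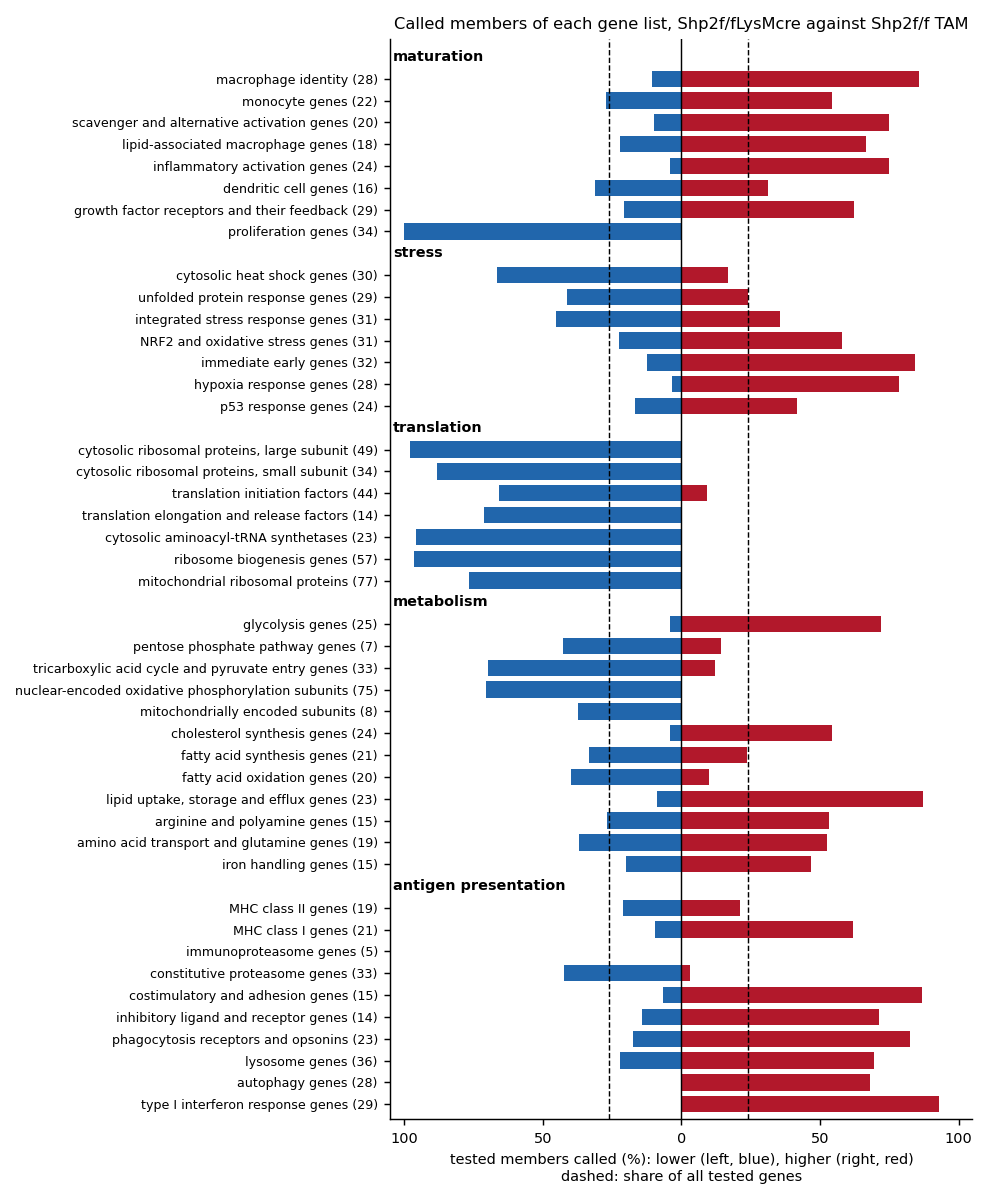
Share of the tested members of each gene list that were called higher (red, right) or lower (blue, left) in Shp2f/fLysMcre TAM against Shp2f/f TAM, in percent, with the number of tested members in brackets and n = 3 libraries per genotype. Dashed lines mark the shares over all tested genes, 23.9% higher and 26.3% lower. Proliferation and translation lists lie on the lower side, and macrophage identity, immediate early, lipid uptake and type I interferon lists on the higher side. The lists were chosen with earlier results of these data known.

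Over the 8 maturation lists 101 of 187 tested genes (54%) rose and 61 (32.6%) fell, beside 23.9% and 26.3% of all tested genes. The median log2 fold change was 0.203. Genes of the mature macrophage were higher in Shp2f/fLysMcre TAM. Of 28 tested members of the macrophage identity list, 24 rose, 3 fell and 1 was not called, with a median log2 fold change of 0.53 against -0.013 over all genes. The rises were led by genes of the resident and phagocytic state. Maf (ENSMUSG00000055435, GRCm38 chromosome 8, 115682942 to 115707794, minus strand), which encodes the transcription factor c-MAF, was 198, 222 and 220.2 CPM in the Shp2f/f libraries and 378, 388 and 387 CPM in the Shp2f/fLysMcre libraries. The genotypes lay far apart (log2 fold change 0.85, SE 0.0474, edgeR adjusted p = 1.47e-07). Cebpa, which encodes a factor of the myeloid lineage, was 65.4, 65.3 and 60.9 CPM in Shp2f/f and 126, 122 and 118 CPM in Shp2f/fLysMcre. Apoe, the lipid carrier that tissue macrophages secrete, was 3248, 3408 and 3248 CPM in Shp2f/f and 7333, 6508 and 6096 CPM in Shp2f/fLysMcre. Cebpa and Apoe did not overlap between the genotypes either. The C1q chains, which start the classical complement pathway and tag dying cells, rose together with log2 fold changes of 0.73 for C1qa, 0.74 for C1qb and 0.62 for C1qc. Surface receptors rose as well, with 0.71 for the efferocytosis receptor Mertk, 0.67 for Itgam (CD11b) and 0.56 for Adgre1 (F4/80), the latter pair being antigens of the sorting gate. Spi1, which encodes PU.1, was 442, 461 and 437 CPM in Shp2f/f and 478, 461 and 438 CPM in Shp2f/fLysMcre and was not called, and Csf1r moved little (1436, 1465 and 1408 CPM in Shp2f/f and 1625, 1597 and 1533 CPM in Shp2f/fLysMcre, log2 fold change 0.14, SE 0.033, edgeR adjusted p = 0.00398), a call that was lost with total counts. Cx3cr1 and Tgfbr1 were among the members that fell, with log2 fold changes of -0.40 and -0.35. The identity genes therefore did not move as a block, and Spi1 and Csf1r, on which every macrophage depends, were among those that changed least.

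More monocyte genes rose than fell. Of 22 tested members 12 (54.5%) rose and 6 (27.3%) fell, beside 23.9% and 26.3% of all tested genes, with a median of 0.14. The share of falls was thus near that of all genes. Ccr2, the receptor by which monocytes leave the marrow and enter tumors, was 378, 419 and 403 CPM in the Shp2f/f libraries and 292, 290.2 and 295 CPM in the Shp2f/fLysMcre libraries. All Shp2f/fLysMcre values lay below all Shp2f/f values (log2 fold change -0.45, SE 0.0436, edgeR adjusted p = 7.55e-06). Itga4, an integrin chain used for adhesion to vessels, fell from 94.3 ± 1.16 to 60.1 ± 7.4 CPM (SD, n = 3), and S100a4 and Plac8 had log2 fold changes of -0.84 and -0.39. F13a1, Ly86 and Thbs1 rose with log2 fold changes of 0.80, 0.62 and 0.54. Ly6c2, the classical monocyte antigen, was 124, 133 and 123 CPM in Shp2f/f and 145, 138 and 131 CPM in Shp2f/fLysMcre, a small called rise with overlapping libraries that was lost without any 1 of 4 libraries, and Chil3 and Fn1 were not called. Ccr2 and Itga4 thus fell, while the other named monocyte genes rose, fell or were not called.

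Both arms of macrophage activation contained rises. In the scavenger and alternative activation list 15 of 20 tested members rose and 2 fell (median 0.43). Cd163, the receptor for hemoglobin and haptoglobin, was 97.8, 96.3 and 96.9 CPM in the Shp2f/f libraries and 249, 239.8 and 242 CPM in the Shp2f/fLysMcre libraries. Arg1, which cuts arginine to ornithine, was 375, 386 and 374 CPM in Shp2f/f and 821, 784 and 769 CPM in Shp2f/fLysMcre. Mrc1 (CD206), a mannose receptor, was 2302, 2347 and 2289 CPM in Shp2f/f and 3748, 3628 and 3757 CPM in Shp2f/fLysMcre. The genotypes did not overlap for these genes, as for 58.2% of all tested genes, and the adjusted p-values in edgeR were 2.2e-09, 8.26e-09 and 1.23e-08. Il4ra rose from 897 ± 2.24 to 1591 ± 51.8 CPM (SD, n = 3), and Il10 and the scavenger receptor gene Msr1 had log2 fold changes of 0.29 and 0.32. The members that fell were Ccl22, which attracts regulatory T cells (4.38, 4.37 and 4.36 CPM in Shp2f/f and 2.01, 2.12 and 1.84 CPM in Shp2f/fLysMcre), and Pdgfb (-0.48). In the inflammatory list 18 of 24 tested members rose and 1, the chemokine gene Cxcl1 at -0.41, fell (3 with total counts). Nos2, the inducible nitric oxide synthase, was 21.1, 22.8 and 22.3 CPM in the Shp2f/f libraries and 71.5, 71.3 and 71.1 CPM in the Shp2f/fLysMcre libraries. It thus rose together with Arg1, another enzyme that uses arginine (log2 fold change 1.69, SE 0.0446, edgeR adjusted p = 2.2e-09). Among secreted mediators Saa3 (1.32), Cxcl3 (1.02), Il1a (0.86), Ccl3 (0.84) and Ccl4 (0.85) rose most, while Tnf and Il1b had log2 fold changes of only 0.33 and 0.26. Il6, Cxcl9 and Cxcl10 were not called, and their libraries overlapped. Il6 was 6.36, 7.09 and 6.09 CPM in Shp2f/f and 5.98, 7.89 and 6.28 CPM in Shp2f/fLysMcre. Cxcl9 was 27.4, 27.2 and 25.8 CPM in Shp2f/f and 26.2, 25.8 and 24.8 CPM in Shp2f/fLysMcre. Cxcl10 was 235, 243 and 234 CPM in Shp2f/f and 248, 251 and 232 CPM in Shp2f/fLysMcre. Neutrophil transcripts moved in the same direction as the inflammatory list, as given above, and their part was not tested.

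The lipid-associated list was mostly higher and the dendritic cell list was mixed. Of the lipid-associated genes 12 of 18 (66.7%) rose and 4 (22.2%) fell, beside 23.9% and 26.3% of all tested genes. Spp1 (osteopontin) was 804, 864 and 827 CPM in Shp2f/f and 1481, 1457 and 1383 CPM in Shp2f/fLysMcre. Gpnmb had a log2 fold change of 0.35. Trem2, the receptor that defines this state in many tissues, was 131, 139.6 and 133 CPM in Shp2f/f and 131, 117 and 116 CPM in Shp2f/fLysMcre, a small called fall with overlapping libraries that was lost in DESeq2. Lpl (lipoprotein lipase) and Cd9 fell, with log2 fold changes of -0.85 and -0.53. Among dendritic cell genes 5 rose and 5 fell of 16 tested, or 31.2% each against 23.9% and 26.3% of all tested genes, and most were low. Irf8, a factor of monocyte and dendritic cell fate, was 103, 104 and 98.7 CPM in Shp2f/f and 169.8, 159 and 167 CPM in Shp2f/fLysMcre (log2 fold change 0.70, SE 0.0412, edgeR adjusted p = 2.13e-07). Flt3, the receptor that defines dendritic cell progenitors, was 2.45, 2.69 and 2.64 CPM in Shp2f/f and 1.39, 1.75 and 2.02 CPM in Shp2f/fLysMcre, which was called lower in edgeR and not in DESeq2. Zbtb46, a marker of classical dendritic cells, was 1.25, 1.22 and 1.59 CPM in Shp2f/f and 1.39, 0.764 and 1.24 CPM in Shp2f/fLysMcre and was not called. Ccr7 and Fscn1, genes of migrating dendritic cells, fell (-0.41 and -0.35), and Itgax (CD11c) rose by only 0.11. Batf3, a factor of cross-presenting dendritic cells, rose from a low level (0.992, 0.635 and 0.835 CPM in Shp2f/f and 2.04, 2.6 and 2.02 CPM in Shp2f/fLysMcre), so the defining genes of these cells did not share a direction. The number of members called lower was 3 in the DESeq2 Wald test, 8 with total counts, and 3 without either Shp2f/f replicate 2 or Shp2f/fLysMcre replicate 2.

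Receptors through which SHP-2 acts, and the feedback genes of their signal, were also examined. Of 29 tested members 18 (62.1%) rose and 6 (20.7%) fell, Ptpn11 included, beside 23.9% and 26.3% of all tested genes. Csf2rb and Csf2rb2, chains of the receptors for GM-CSF and its relatives, had log2 fold changes of 0.41 and 0.71, and these near-identical genes may share reads. Csf3r had one of 0.72 and Csf2ra one of 0.14. Feedback inhibitors of the ERK pathway split in direction. Dusp6, a phosphatase that acts on ERK, was 52.1, 54.7 and 53.4 CPM in the Shp2f/f libraries and 98.7, 102 and 103 CPM in the Shp2f/fLysMcre libraries. Spry1, an inhibitor of RAS activation, was 22, 20.4 and 19.2 CPM in the Shp2f/f libraries and 10, 9.56 and 8.01 CPM in the Shp2f/fLysMcre libraries. The former rose and the latter fell in every library, with log2 fold changes of 0.92 and -1.15. Dusp4 fell (-0.74), Spred1 and Spred2 fell slightly (-0.25 and -0.23), Etv5 rose (0.50), and Spry2 and Etv4 were not called. Socs3, which limits signals of the IL-6 and G-CSF receptors, rose from 424 ± 6.25 to 734 ± 11.1 CPM (SD, n = 3). Ptpn6, which encodes the related phosphatase SHP-1, was 339, 343 and 338 CPM in Shp2f/f and 426, 403 and 389 CPM in Shp2f/fLysMcre, a rise with a log2 fold change of 0.26.

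Proliferation genes fell as a group. All 34 of 34 tested members were called lower, with log2 fold changes from -0.15 to -0.99 and a median of -0.76, beside 26.3% called lower over all genes. Mki67 was 226, 218 and 219 CPM in the Shp2f/f libraries and 113, 115 and 115 CPM in the Shp2f/fLysMcre libraries. Top2a, the topoisomerase of dividing cells, was 244, 249 and 252 CPM in Shp2f/f and 132, 126 and 128 CPM in Shp2f/fLysMcre. The libraries of each genotype were nearly equal and the genotypes were far apart (log2 fold change -0.95, SE 0.0363, edgeR adjusted p = 1.09e-08 for Mki67). Genes of DNA replication fell as well as those of mitosis, with log2 fold changes of -0.88 for the helicase subunit Mcm6, -0.82 for the ribonucleotide reductase subunit Rrm2, -0.93 for Cdk1 and -0.99 for the checkpoint kinase Bub1. Pcna, which also serves DNA repair, fell least (-0.15) and was not called in DESeq2 or without any 1 library other than Shp2f/fLysMcre replicate 1. The T and NK cell lists and the sum of the fibroblast and fibrosarcoma list were lower in the same libraries, as given above. Cells of these types can also divide, and their part was not tested. No member was called higher in edgeR, none had an unadjusted p under 0.05 in that direction, and DESeq2 called none higher.

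**Figure D2:**
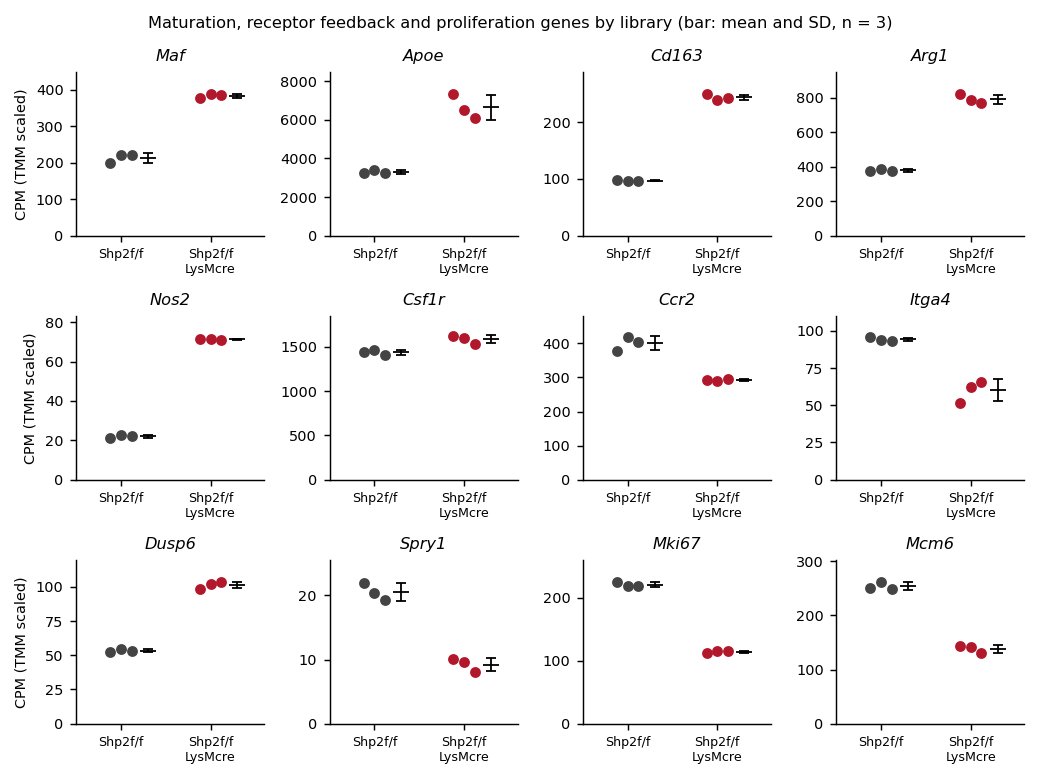
Expression of 12 genes in CPM after TMM scaling (y axis, from 0) in each of the 3 Shp2f/f (grey) and 3 Shp2f/fLysMcre (red) TAM libraries, with the mean and SD beside the points. Maf, Apoe, Cd163, Arg1, Nos2 and Dusp6 lie higher in each Shp2f/fLysMcre library, Csf1r differs little, and Ccr2, Itga4, Spry1, Mki67 and Mcm6 lie lower.

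Over the 7 stress lists 96 of 200 tested genes (48%) rose and 62 (31%) fell, beside 23.9% and 26.3% of all tested genes. The median log2 fold change was 0.109. The cytosolic heat shock list was lower on the whole, with 20 of 30 tested members called lower, 5 called higher and a median of -0.23. The inducible HSP70 genes stood apart. Hspa1a was 13.9, 16.8 and 14.8 CPM in the Shp2f/f libraries and 59.5, 57.9 and 53.3 CPM in the Shp2f/fLysMcre libraries. Hspa1b was 10.4, 13.2 and 12.3 CPM in Shp2f/f and 26.3, 27.6 and 30.4 CPM in Shp2f/fLysMcre. Their log2 fold changes were 1.91 and 1.23, with edgeR adjusted p-values of 8.26e-09 and 5.75e-07, and since the genes are near-identical copies, their reads may have been split between them. The constitutive HSP90 gene Hsp90ab1 fell from 2010 ± 26.7 to 1369 ± 71.8 CPM (SD, n = 3) and its cochaperone Fkbp4 from 135 ± 2.42 to 76.9 ± 7.04 CPM. The mitochondrial chaperonin genes Hspd1 and Hspe1, which share a promoter region between them, had log2 fold changes of -0.75 and -0.55, and the mitochondrial HSP70 gene Hspa9 one of -0.42. Hspa8, the constitutive cytosolic HSP70, fell slightly (-0.22), and so did Hsf1 (-0.25), the master factor of the response. Hsp90aa1 and Hsph1, both induced by heat in other settings, had log2 fold changes of -0.39 and -0.25. Dnajb1, a common companion of HSP70 in the heat shock response, was 68.7, 72.7 and 69.2 CPM in Shp2f/f and 73.7, 77.5 and 74.6 CPM in Shp2f/fLysMcre and was not called. With total counts 3 members were called higher.

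The promoters of these genes are shown because members that carry the same element moved in opposite directions. The heat shock element searched was GAANNTTC, on both strands of the 250 bases before the start site, in the RefSeq promoters of GRCm38.p6, and it was found in 2088 of 27025 genes (7.73%) and in 8 of the 23 listed genes with a promoter. Of those 8, 3 were called higher (Hspa1a, Hspa1b and, at a log2 fold change of 1.45, Hspb1), 4 lower (Hspd1, Hspe1, Dnaja1 and Fkbp4), and Dnajb6 was not called. Capitals mark the element, and each stretch is written 5′ to 3′ on the strand of its gene.
Hspa1a, chr17:34972217-34972296, minus strand: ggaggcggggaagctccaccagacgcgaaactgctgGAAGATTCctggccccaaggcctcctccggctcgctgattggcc
Hspa1b, chr17:34959299-34959378, minus strand: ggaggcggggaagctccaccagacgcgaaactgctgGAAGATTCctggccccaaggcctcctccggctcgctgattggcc
Hspe1, chr1:55088028-55088107, plus strand: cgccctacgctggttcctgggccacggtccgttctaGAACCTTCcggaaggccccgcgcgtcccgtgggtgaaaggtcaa
The stretches of Hspa1a and Hspa1b are letter for letter the same over these 80 bases. Hspe1 carries the element too, and its transcript fell (78.9, 88.3 and 86.2 CPM in Shp2f/f and 60.4, 58.7 and 54.3 CPM in Shp2f/fLysMcre).

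The unfolded protein response of the endoplasmic reticulum gave 7 of 29 members called higher (24.1%), 12 lower (41.4%) and 10 not called. The share of rises was near the 23.9% of all tested genes, of which 26.3% were lower. Hspa5 (BiP), a classic target of the response, was 1811, 1864 and 1826 CPM in Shp2f/f and 1880, 1696 and 1669 CPM in Shp2f/fLysMcre and was not called. Hsp90b1 had a log2 fold change of -0.23 and Herpud1 one of 0.57. Manf and Sdf2l1, other targets in the endoplasmic reticulum, fell (-0.27 and -0.27). Xbp1, the factor that is spliced when the sensor IRE1 fires, had a small rise (0.16), which gene counts cannot assign to a splice form. The number called lower fell to 7 without Shp2f/f replicate 3.

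The integrated stress response list held calls in both directions. This pathway slows translation through eIF2 and raises the factor ATF4 when amino acids are short. Of 31 tested members 11 (35.5%) rose and 14 (45.2%) fell, beside 23.9% and 26.3% of all tested genes. Atf4 itself was 393, 396 and 390.4 CPM in Shp2f/f and 433, 391 and 383 CPM in Shp2f/fLysMcre and was not called. Asns, asparagine synthetase, was 33.3, 34.3 and 40.7 CPM in the Shp2f/f libraries and 18.8, 15.1 and 15.7 CPM in the Shp2f/fLysMcre libraries. Psat1, an enzyme of serine synthesis, was 80.6, 87.1 and 82.8 CPM in Shp2f/f and 45.3, 44.6 and 45.4 CPM in Shp2f/fLysMcre. Phgdh, the first enzyme of that route, was 16.4, 14 and 16.2 CPM in Shp2f/f and 8.8, 8.66 and 8.3 CPM in Shp2f/fLysMcre. Every Shp2f/fLysMcre library lay below every Shp2f/f library for these enzymes, with log2 fold changes of -1.13, -0.89 and -0.85. The serine and folate enzymes Shmt2 and Mthfd2 had log2 fold changes of -0.87 and -0.64, Trib3 one of -0.65, and the leucine transporter Slc7a5 one of -0.79. Atf3 was 293, 296 and 293 CPM in the Shp2f/f libraries and 724, 727 and 699 CPM in the Shp2f/fLysMcre libraries, a rise in each library (log2 fold change 1.28, SE 0.0358, edgeR adjusted p = 2.2e-09). Ddit4, an inhibitor of mTORC1, was 24.3, 25 and 27 CPM in Shp2f/f and 83.9, 72.7 and 66.2 CPM in Shp2f/fLysMcre. Gdf15, a secreted stress factor, was low and rose from 3.13 ± 0.228 to 11.3 ± 0.933 CPM (SD, n = 3). Ddit3 (CHOP) had a log2 fold change of 0.34.

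Of the NRF2 and oxidative stress list 18 of 31 members (58.1%) rose and 7 (22.6%) fell, beside 23.9% and 26.3% of all tested genes. The share of falls was thus near that of all genes. Hmox1 (ENSMUSG00000005413, GRCm38 chromosome 8, 75093621 to 75100589, plus strand), which breaks down heme, was 342, 332 and 332 CPM in the Shp2f/f libraries and 935, 854 and 815 CPM in the Shp2f/fLysMcre libraries. It rose in each Shp2f/fLysMcre library (log2 fold change 1.37, SE 0.05, edgeR adjusted p = 8.26e-09). The ferritin genes Fth1 and Ftl1, which store the freed iron, had log2 fold changes of 0.58 and 0.52, the heme transporter Slc48a1 had one of 0.70, and Nfe2l2 (NRF2) and the glutathione synthesis gene Gclm had 0.54 and 0.43. Txnrd1 and Txn1 of the thioredoxin system fell (-0.31 and -0.44), the superoxide dismutase gene Sod1 fell (-0.44), and Srxn1 and Gclc were not called. Nqo1, the textbook NRF2 target, was 0.584, 0.533 and 0.377 CPM in Shp2f/f and 0.558, 0.424 and 2.13 CPM in Shp2f/fLysMcre, too low and variable to be called. Transcripts of the erythroid cell list were low and moved with the heme genes, at 5.03 to 6.78 CPM of the total count in Shp2f/f and 7.19 to 11.4 in Shp2f/fLysMcre, with 3 of 5 tested members called higher (Hba-a1, Hbb-bs and Hbb-bt), and their part was not tested.

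Immediate early genes, which are switched on within minutes of a stimulus, were higher. Of 32 tested members 27 (84.4%) rose and 4 (12.5%) fell, beside 23.9% and 26.3% of all tested genes, with a median of 0.56. The cells of all libraries were sorted from digested tumors, so these levels need not be those in the tumor. The part of this handling was not tested. Klf2, a factor that restrains inflammatory genes, was 78, 81.8 and 79.1 CPM in the Shp2f/f libraries and 341, 314 and 305 CPM in the Shp2f/fLysMcre libraries. It had the largest rise of the list (log2 fold change 2.01, SE 0.0493, edgeR adjusted p = 1.72e-09). Jun was 394, 407 and 390.1 CPM in Shp2f/f and 996, 974 and 919 CPM in Shp2f/fLysMcre. Fos, its partner in AP-1, was 1252, 1364 and 1331 CPM in Shp2f/f and 2695, 2764 and 2600 CPM in Shp2f/fLysMcre. The genotypes did not overlap for either. Rhob, Dusp1, Zfp36 and Egr1 rose with log2 fold changes of 1.39, 1.13, 0.90 and 0.85. The nuclear receptor genes Nr4a2 and Nr4a3 fell (-0.60 and -0.51) while Nr4a1 rose (0.21), so that even close relatives parted. Egr3 and Fosl1 were the other members that fell.

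**Figure D3:**
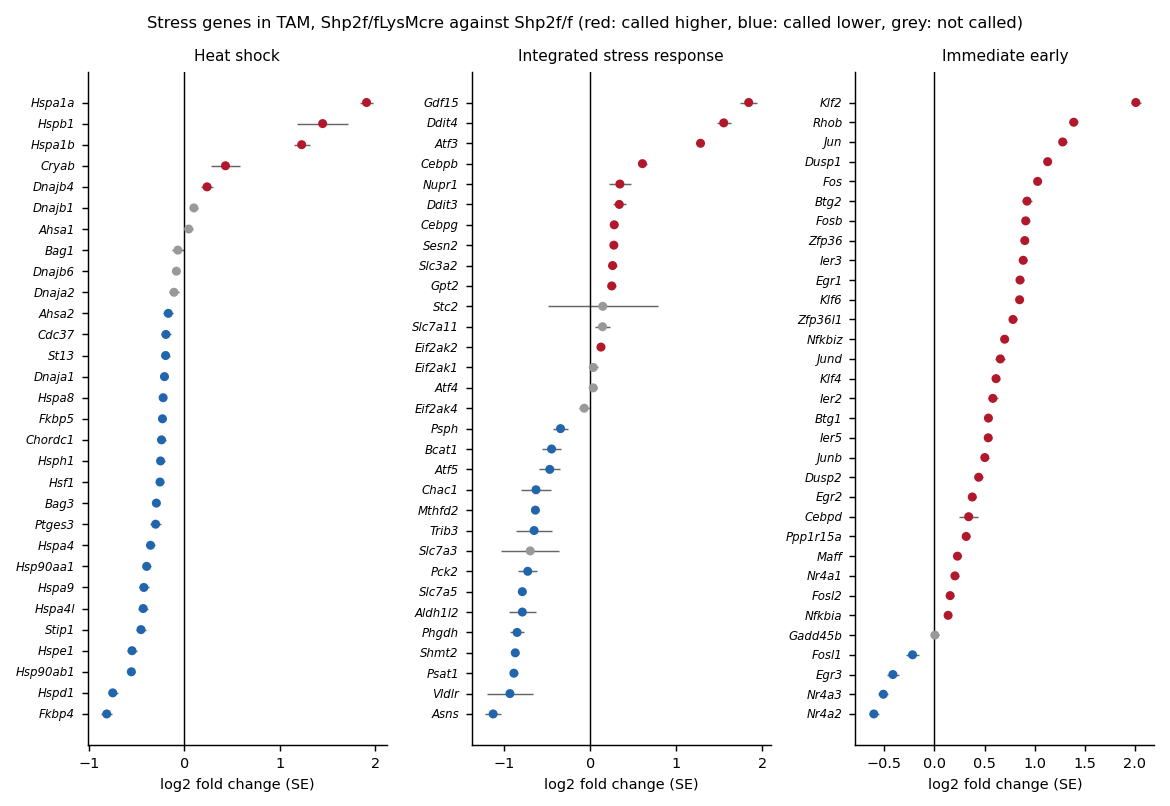
Log2 fold change of each tested member of 3 stress lists (x axis, bars are the SE of the edgeR fit, n = 3 libraries per genotype), with red for called higher, blue for called lower and grey for not called. Hspa1a and Hspa1b stand at the top of the heat shock list while most chaperones are lower, Asns lies at the bottom of the integrated stress response list and Gdf15 at its top, and 27 of the 32 immediate early genes are higher.

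Hypoxia genes were mostly higher. Of 28 tested members 22 rose and 1, Mif at -0.12, fell, a call that was lost in DESeq2, with a replicate block and without replicate 2 or 3 of either genotype (median 0.35). Pfkfb3, which drives glycolytic flux, was 140.2, 138 and 139.6 CPM in Shp2f/f and 312, 324 and 322 CPM in Shp2f/fLysMcre. Egln3, an oxygen sensor that HIF induces, was 18.1, 20.2 and 19.6 CPM in Shp2f/f and 52.9, 49.1 and 50.1 CPM in Shp2f/fLysMcre. Both parted without overlap between the genotypes. Hif1a rose with a log2 fold change of 0.59, Bnip3 with 0.81, Slc2a1 (GLUT1) with 0.74 and Vegfa with 0.55. Adm had the largest change of the list (2.89) from a low level, 0.73, 0.279 and 0.485 CPM in Shp2f/f and 4.06, 3.11 and 3.86 CPM in Shp2f/fLysMcre. Car9 and Ldha, which are also HIF targets, were not called. Genes of the p53 response gave 10 rises (41.7%) and 4 falls (16.7%) among 24, beside 23.9% and 26.3% of all tested genes. Cdkn1a, the cell cycle inhibitor p21, was 465, 482 and 481 CPM in Shp2f/f and 654, 662 and 638 CPM in Shp2f/fLysMcre. Plk2 and Btg2 had log2 fold changes of 1.10 and 0.92, whereas Mdm2 and Ccng1 were not called, and Trp53 and Aen fell (-0.48 and -0.42). With total counts 8 members of that list were called lower, and with DESeq2 2.

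Translation genes were lower across each layer of the apparatus. Over the 7 translation lists, 253 of 298 tested genes (84.9%) fell and 4 (1.34%) rose, beside 26.3% and 23.9% of all tested genes. The median log2 fold change was -0.301. Of the 49 large subunit proteins 48 fell and of the 34 small subunit proteins 30 fell, and none was called higher in edgeR, in DESeq2 or at an unadjusted p under 0.05. The changes were small and uniform, from -0.16 to -0.51 on the log2 scale in the large and from -0.047 to -0.49 in the small subunit. Rplp0, a stalk protein, was 1180, 1198 and 1177 CPM in the Shp2f/f libraries and 955, 939 and 892 CPM in the Shp2f/fLysMcre libraries. Rps6, which is phosphorylated downstream of mTOR, was 239, 252 and 231 CPM in Shp2f/f and 174, 174 and 165 CPM in Shp2f/fLysMcre. The largest falls were those of Rpl12 and Rpl36a in the large (-0.51 and -0.49) and of Rps6 and Rpsa in the small subunit (-0.49 and -0.47). For Rplp0 and Rps6 the edgeR adjusted p-values were 9.57e-06 and 3.9e-06, and no library of one genotype reached the range of the other. As a share of all counts, ribosomal protein genes took 2.92% to 2.98% in Shp2f/f and 2.13% to 2.28% in Shp2f/fLysMcre. Rps27, Rps9, Fau and Rps29 of the small and Rpl36al of the large subunit were not called. Ribosomal protein genes have many processed pseudogenes, and reads that match those as well may have been lost or split.

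Genes that build the ribosome had the lowest median of the 7 translation lists. Of 57 tested ribosome biogenesis genes 55 fell, none was called higher in edgeR, in DESeq2 or at an unadjusted p under 0.05, and the median was -0.52. Ncl, which encodes nucleolin, was 919.7, 965 and 938 CPM in the Shp2f/f libraries and 682, 608 and 607 CPM in the Shp2f/fLysMcre libraries. Npm1, another nucleolar protein gene, was 504, 544 and 531 CPM in Shp2f/f and 370.2, 341 and 331 CPM in Shp2f/fLysMcre. Nop58, a core protein of box C/D particles, was 139, 140.4 and 133 CPM in Shp2f/f and 79.6, 74.3 and 73.5 CPM in Shp2f/fLysMcre. These nucleolar genes fell with edgeR adjusted p-values of 2.55e-06, 2.2e-06 and 7.07e-08. Subunits of RNA polymerase I, which transcribes ribosomal RNA, were among them, with log2 fold changes of -0.72 for Polr1a and -0.85 for Polr1b. Fbl, which methylates ribosomal RNA, had one of -0.54. The telomere and pseudouridine synthase gene Dkc1 had the lowest value (-0.90). Myc, a known activator of this program, was 54.5, 58.1 and 58.2 CPM in Shp2f/f and 58, 53.5 and 49.9 CPM in Shp2f/fLysMcre and was not called, and Heatr1 was the other member that was not called.

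Factors that charge and use transfer RNA were lower too. Of 23 aminoacyl-tRNA synthetase genes 22 fell (median -0.42), led by Iars at -0.62 and Vars at -0.61, Aars was not called, and none was called higher in edgeR, in DESeq2 or at an unadjusted p under 0.05. Initiation factors were less uniform, with 29 lower and 4 higher of 44. Eif2b3, a subunit of the exchange factor that the integrated stress response blocks, had the lowest value (28.7, 28.4 and 29.8 CPM in Shp2f/f and 18, 17.7 and 16.2 CPM in Shp2f/fLysMcre). Eif4e, which binds the messenger cap, had a log2 fold change of -0.25, Eif4g1 one of -0.32, the helicase gene Eif4a1 one of -0.17, Eif2s1 (eIF2 alpha) one of -0.40 and the inhibitor Pdcd4 one of -0.54. Eif4ebp1, which holds Eif4e back, was not called. The members called higher were Paip1, Paip2, Eif4g3 and Eif1, at log2 fold changes of 0.14 to 0.22, and the count was 0 with total counts and 2 without Shp2f/f replicate 1. Elongation and release factors fell in 10 of 14 cases, with 2565, 2649 and 2538 CPM in Shp2f/f and 2053, 2018 and 1953 CPM in Shp2f/fLysMcre for Eef2 and log2 fold changes of -0.60 for the recycling factor Abce1 and -0.55 for Eef1g. That of Eef1a1 was only -0.12. No member was called higher in edgeR or in the DESeq2 Wald test, 1 was with the DESeq2 size factors or without Shp2f/f replicate 3, and 1 had an unadjusted p under 0.05 in that direction. Of 77 mitochondrial ribosomal proteins 59 fell, led by Mrps6 (-0.82) and Mrpl12 (-0.57), and none was called higher in edgeR, in DESeq2 or at an unadjusted p under 0.05. The median of -0.24 was near that of the respiratory chain described below.

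**Figure D4:**
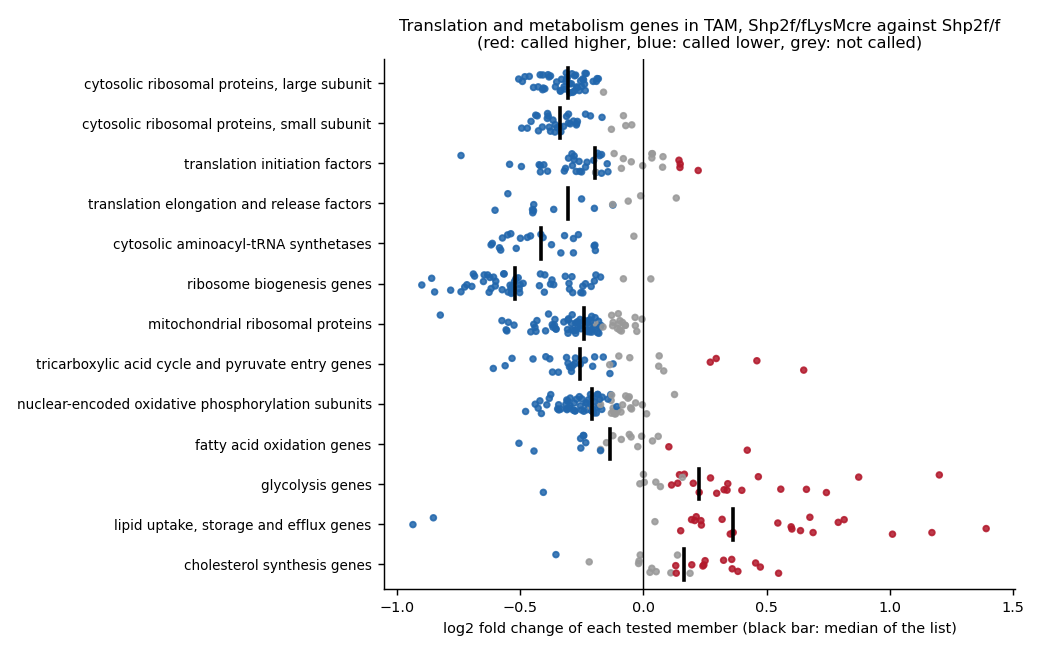
Log2 fold change of each tested member (x axis) of 7 translation and 6 metabolism lists, with red for called higher, blue for called lower and grey for not called, and a black bar at the median of the list. Ribosome biogenesis has the lowest median at -0.52, the respiratory chain and the tricarboxylic acid cycle also lie below 0, and glycolysis, lipid uptake and cholesterol synthesis lie above 0.

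Over the 12 metabolism lists 88 of 280 tested genes (31.4%) rose and 110 (39.3%) fell, beside 23.9% and 26.3% of all tested genes. The median log2 fold change was -0.0652, and the lists parted. Glycolysis genes rose in 18 of 25 cases and 1, the lactate transporter Slc16a1 at -0.41, fell (3 with total counts). The largest rises were those of Pfkfb3, given above, and of the glucose transporters. Slc2a1 was 228, 234 and 233 CPM in the Shp2f/f libraries and 390.3, 387 and 385 CPM in the Shp2f/fLysMcre libraries. Pfkl had a log2 fold change of 0.47, Hk2 one of 0.34 and Pkm one of 0.30. Enzymes of the common trunk changed little, with 0.15 for Aldoa and 0.20 for Gapdh, while Eno1 and Ldha were not called. In the tricarboxylic acid cycle list 23 of 33 members fell and 4 rose. Idh3a, the catalytic subunit of the mitochondrial isocitrate dehydrogenase, was 128, 127 and 126 CPM in Shp2f/f and 90.6, 85.1 and 82.2 CPM in Shp2f/fLysMcre. Mdh2, the mitochondrial malate dehydrogenase, was 338, 344 and 332 CPM in Shp2f/f and 257, 247 and 239 CPM in Shp2f/fLysMcre. Cs (citrate synthase) was 279, 283 and 277 CPM in Shp2f/f and 234, 229 and 222 CPM in Shp2f/fLysMcre. The genotypes did not overlap for these enzymes, as for 58.2% of all tested genes. Idh2, the other mitochondrial isocitrate dehydrogenase, had a log2 fold change of -0.53. The members that rose were Acod1 (0.65), which turns aconitate into itaconate, the cytosolic Idh1 (0.46), and the regulators of pyruvate dehydrogenase Pdp1 (0.30) and Pdk2 (0.27).

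Respiratory chain genes were lower too. Of 75 nuclear-encoded subunits 53 fell and none was called higher in edgeR or in the DESeq2 Wald test, while 1 had an unadjusted p under 0.05 in that direction, and the median was -0.21. A single member was called higher with the DESeq2 size factors and without Shp2f/f replicate 3 or Shp2f/fLysMcre replicate 3. Values reached -0.48 for Atp5g1 of the ATP synthase and -0.44 for Uqcr10 of complex III on the log2 scale. Atp5a1, another subunit of the synthase, was 919.7, 949.5 and 906 CPM in Shp2f/f and 779, 724 and 698 CPM in Shp2f/fLysMcre. Other subunits were -0.29 for Uqcrc1, -0.30 for Ndufs1 of complex I, -0.21 for Sdhd of complex II and -0.19 for Cox4i1 of complex IV, on the log2 scale.  Of 8 tested subunits encoded in the mitochondrial genome 3 (37.5%) were called lower, beside 26.3% of all tested genes. None was called higher in edgeR, in DESeq2 or at an unadjusted p under 0.05. The group was spread by Shp2f/fLysMcre replicate 1, which had the lowest share of mitochondrial reads. Cytochrome b (mt-Cytb) was 2110, 2037 and 2131 CPM in Shp2f/f and 1084, 1643 and 1651 CPM in Shp2f/fLysMcre. The oxidase subunit mt-Co1 was 4356, 4345 and 4542 CPM in Shp2f/f and 2633, 4262 and 4518 CPM in Shp2f/fLysMcre, the latter not called. The log2 fold change was -0.41 for mt-Nd4 and -0.32 for mt-Nd1, and only the former was called. The number called was 5 with a replicate block and 7 without the filter on low counts. Of 7 pentose phosphate pathway genes 1 (14.3%), G6pdx at 0.35, rose and 3 (42.9%) fell, beside 23.9% and 26.3% of all tested genes. Tkt (-0.28) and Rpia (-0.21) were among the falls, which numbered 5 with total counts.

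Genes of lipid uptake, storage and efflux were mostly higher. Of 23 uptake, storage and efflux genes 20 rose and 2 fell (1 without Shp2f/fLysMcre replicate 2), with a median of 0.36. Cd36, a receptor for oxidized lipoprotein and fatty acids, was 8.52, 8.81 and 8.81 CPM in the Shp2f/f libraries and 21.3, 23.3 and 23.9 CPM in the Shp2f/fLysMcre libraries. Pparg, the nuclear receptor that induces it, was 7.88, 7.82 and 8.7 CPM in Shp2f/f and 19.2, 17.6 and 18.1 CPM in Shp2f/fLysMcre. Neither gene overlapped between the genotypes (log2 fold change 1.39, SE 0.063, edgeR adjusted p = 3.67e-08 for the former). Plin2, which coats lipid droplets, rose from 547 ± 5.79 to 962 ± 65.5 CPM (SD, n = 3), Lipa, the acid lipase of the lysosome, had a log2 fold change of 0.79, and the cholesterol exporters Abca1 and Abcg1 had 0.60 and 0.36. Nr1h3 (LXR alpha), which controls the exporters, rose by 0.35. Cholesterol synthesis genes rose slightly in 13 of 24 cases, with 0.55 for Stard4, 0.47 for Insig1, 0.13 for Hmgcs1 and 0.13 for Srebf2, the factor that drives them. Lss was the member that fell (-0.36), with 3 called lower with total counts and 2 under either other filter or without Shp2f/f replicate 1. Sqle was not called, and the count of rises fell to 8 with total counts. Fatty acid synthesis genes gave 5 rises and 7 falls of 21, or 23.8% and 33.3% against 23.9% and 26.3% of all tested genes. Fasn, fatty acid synthase, was 86.2, 85.6 and 84.7 CPM in Shp2f/f and 46.1, 51.3 and 48.8 CPM in Shp2f/fLysMcre, a fall without overlap, Acsl1 had a log2 fold change of -0.40, Lpin1 and Fads1 rose (0.95 and 0.58), Srebf1 rose by 0.19, and Scd1 was not called. The number of falls was 3 without Shp2f/fLysMcre replicate 2 and 4 without Shp2f/f replicate 2 or 3 or in the DESeq2 Wald test. Fatty acid oxidation genes gave 2 rises and 8 falls of 20, or 10% and 40% against the same shares of all tested genes. Cpt1a, the gate to the mitochondrion, rose (0.42), and Eci1 and the coactivator gene Ppargc1b fell (-0.44 and -0.51). Hadha and Acadm of the spiral itself were not called. With total counts 14 members of that list were called lower, and only 1 was called higher with total counts, under either other filter, in the DESeq2 Wald test, with a replicate block and without any Shp2f/f replicate or Shp2f/fLysMcre replicate 2.

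Amino acid genes were called in both directions, beside 23.9% higher and 26.3% lower over all tested genes. In the arginine and polyamine list 8 of 15 (53.3%) rose and 4 (26.7%) fell. Arg2 had a log2 fold change of 1.23 and Slc7a2, a cationic amino acid transporter, one of 1.11, whereas another such transporter, Slc7a1, fell (141, 133 and 129 CPM in Shp2f/f and 64.9, 68.9 and 72.4 CPM in Shp2f/fLysMcre) and Ass1, which rebuilds arginine, fell (-0.35). Srm, spermidine synthase, was 72.7, 74.7 and 76.8 CPM in the Shp2f/f libraries and 40.9, 39.4 and 35.4 CPM in the Shp2f/fLysMcre libraries. It and Sms, spermine synthase, fell (-0.95 and -0.67), while Sat1, which acetylates polyamines for breakdown, rose (0.63) and Odc1, the entry enzyme, rose by 0.28. Among amino acid transport and glutamine genes 10 of 19 (52.6%) rose and 7 (36.8%) fell. The glutamine importer Slc1a5 was 195, 192 and 189.6 CPM in Shp2f/f and 100.2, 98.3 and 97.3 CPM in Shp2f/fLysMcre. The glutamine synthetase gene Glul was 226, 224 and 228 CPM in Shp2f/f and 401, 379 and 381 CPM in Shp2f/fLysMcre. The former was called lower and the latter higher. The lysosomal amino acid exporter Slc36a1 had a log2 fold change of 0.67.

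The main importer and the exporter of iron moved in opposite directions. Tfrc, the transferrin receptor that brings iron in, was 379.9, 417 and 402 CPM in the Shp2f/f libraries and 170.1, 172 and 178 CPM in the Shp2f/fLysMcre libraries. Slc40a1, ferroportin, the sole known exporter, was 10.2, 11.4 and 11 CPM in the Shp2f/f libraries and 34.3, 31.7 and 33.4 CPM in the Shp2f/fLysMcre libraries. The importer fell and the exporter rose in all libraries, with log2 fold changes of -1.21 and 1.61 and edgeR adjusted p-values of 8.26e-09 and 8.26e-09. With the rises of Hmox1, Cd163 and the ferritin genes given above, 7 of 15 members (46.7%) were called higher and 3 (20%) lower. The shares over all tested genes were 23.9% and 26.3%. These calls stand beside the higher erythroid transcripts given with Hmox1. Spic, the factor of iron-recycling macrophages of the spleen, was not on the list and was named after its values were seen, at 7.09, 7.29 and 7.49 CPM in Shp2f/f and 22.8, 23.4 and 22.2 CPM in Shp2f/fLysMcre. Steap4, a metalloreductase gene, fell (-0.88). Ncoa4, which delivers ferritin for breakdown, and Ireb2, which controls these messengers after transcription, were not called.

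Over the 10 lists on antigen presentation and uptake 130 of 222 tested genes (58.6%) rose and 35 (15.8%) fell, with a median log2 fold change of 0.196. Of 19 tested class II genes 4 fell, 4 rose and 11 were not called, which is 21.1% in each direction and no more than the 23.9% higher and 26.3% lower of all tested genes. The falls were those of the presenting molecule and its invariant chain. H2-Aa was 334, 346 and 342 CPM in the Shp2f/f libraries and 263, 250.1 and 232 CPM in the Shp2f/fLysMcre libraries. H2-Ab1, which encodes its partner chain, was 289.5, 300.5 and 288 CPM in Shp2f/f and 237, 215 and 208 CPM in Shp2f/fLysMcre. H2-Eb1 was 247, 250.1 and 245 CPM in Shp2f/f and 193, 178 and 162 CPM in Shp2f/fLysMcre. Their log2 fold changes were -0.46, -0.41 and -0.48, and that of the invariant chain gene Cd74 was -0.20, which was not called without Shp2f/fLysMcre replicate 2. The peptide exchange factors H2-DMa and H2-DMb1 and the transactivator Ciita (10.5, 8.15 and 9.43 CPM in Shp2f/f and 6.97, 9.14 and 7.3 CPM in Shp2f/fLysMcre) were not called. The rises were those of processing and turnover, Lgmn (0.67), Ctss (0.55) and Ctsl (0.51) among the proteases of the endosome. March1, the ubiquitin ligase that removes class II molecules from the surface, was 39.7, 43.3 and 43.2 CPM in Shp2f/f and 84.2, 87.4 and 89.7 CPM in Shp2f/fLysMcre (log2 fold change 1.05, SE 0.0466, edgeR adjusted p = 3.25e-08). With total counts 7 members were called lower. Members of the class II cluster are alike in sequence, and short reads may not separate them fully.

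Class I genes rose. Of 21 tested members 13 rose and 2 fell. B2m, the shared light chain, was 2398, 2579 and 2472 CPM in Shp2f/f and 3329, 3161 and 3082 CPM in Shp2f/fLysMcre. H2-K1, a heavy chain gene, was 2200, 2286 and 2211 CPM in Shp2f/f and 2804, 2772 and 2606 CPM in Shp2f/fLysMcre. H2-D1, the other classical heavy chain gene, was 2759, 2877 and 2764 CPM in Shp2f/f and 3500, 3410 and 3207 CPM in Shp2f/fLysMcre. The log2 fold changes were modest, at 0.36, 0.29 and 0.27, and the values did not overlap between the genotypes. The gene of the nonclassical molecule H2-M3 had one of 0.49, Tap1 one of 0.15 and the transactivator Nlrc5 one of 0.17, and Tap2, H2-Q6 and H2-Q7 were not called. The 2 members that fell, Calr and Pdia3, are general chaperones of the endoplasmic reticulum, and with total counts 4 were called lower. Of the pair, 1 was no longer called with the DESeq2 size factors or without Shp2f/f replicate 2 or 3 or Shp2f/fLysMcre replicate 2 or 3. No immunoproteasome gene was called in edgeR or DESeq2, of 5 tested (Psmb8, Psmb9, Psmb10, Psme1 and Psme2, with log2 fold changes of -0.10 to 0.098), and 1, Psme2, had an unadjusted p under 0.05. With total counts 2 were called lower, and 1 was without Shp2f/f replicate 1 or Shp2f/fLysMcre replicate 1, while 2 were called higher without Shp2f/fLysMcre replicate 3. Constitutive proteasome genes were called lower in 14 of 33 cases and higher in 1, with a median of -0.10 and log2 fold changes of -0.26 for Psme3, -0.26 for Psmb5 and -0.25 for Psmb7, while Psme4 was the rise (0.12) and Psmb6 was not called. That count was 29 with total counts and 26 without Shp2f/fLysMcre replicate 1, so it rests on small differences.

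Genes that set the signal to T cells rose on both sides. Of 15 costimulatory and adhesion genes 13 rose and 1, Cd80 at -0.28, fell. Cd83 was 272, 282 and 259.6 CPM in Shp2f/f and 385, 383 and 373 CPM in Shp2f/fLysMcre. Tnfsf9 (the ligand of 4-1BB) was 31.3, 32.6 and 30.9 CPM in Shp2f/f and 57.2, 53.2 and 52.1 CPM in Shp2f/fLysMcre. Cd86, Cd40 and Slamf7 had log2 fold changes of 0.17, 0.19 and 0.65. Nectin2 had the largest rise (0.82). The count fell to 8 with total counts. Of 14 inhibitory genes 10 rose and 2 fell. Cd274, which encodes PD-L1, was 174, 169 and 167 CPM in the Shp2f/f libraries and 260.2, 274 and 294 CPM in the Shp2f/fLysMcre libraries. It rose in every library (log2 fold change 0.70, SE 0.0481, edgeR adjusted p = 6.33e-07). Pirb, Lilrb4a, Vsir (VISTA) and Entpd1 (CD39) had log2 fold changes of 0.53, 0.55, 0.51 and 0.50, while Havcr2 (TIM-3) and Cd276 (B7-H3) fell (-0.36 and -0.76). Pdcd1, which encodes PD-1, was 1.31, 0.991 and 1.32 CPM in Shp2f/f and 1.02, 1.19 and 1.03 CPM in Shp2f/fLysMcre, a level near 1 CPM at which no difference was called.

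Uptake and degradation genes were higher. Of 23 phagocytosis receptors and opsonins 19 (82.6%) rose and 4 (17.4%) fell, beside 23.9% and 26.3% of all tested genes. In the DESeq2 Wald test 2 were called lower. The Fc receptors rose together, with log2 fold changes of 0.33 for Fcgr1, 0.70 for Fcgr2b, 0.60 for Fcgr3 and 0.73 for Fcgr4. Gas6, which bridges dying cells to Mertk, was 71.8, 72.1 and 71.5 CPM in Shp2f/f and 129, 119.7 and 117 CPM in Shp2f/fLysMcre. Mertk was 117, 106 and 112 CPM in Shp2f/f and 172, 185 and 191 CPM in Shp2f/fLysMcre. Its relative Axl fell (152, 157 and 153 CPM in Shp2f/f and 116, 116 and 111 CPM in Shp2f/fLysMcre), and so did Itgav (-0.72), which takes part in another uptake route with Mfge8. Of 36 lysosome genes 25 (69.4%) rose and 8 (22.2%) fell, so the share of falls was near that of all genes. Ctsb, Ctsd and Ctsh, lysosomal proteases, had log2 fold changes of 0.67, 0.69 and 0.72, Lipa was given above, Lamp1, a membrane protein of the organelle, had one of 0.63 and Tfeb, a factor of the lysosome program, one of 0.19. Against this, Ctsk (cathepsin K) was 2033, 2101 and 2002 CPM in the Shp2f/f libraries and 844, 795 and 737 CPM in the Shp2f/fLysMcre libraries. Atp6v0d2, a proton pump subunit, was 274, 298 and 295 CPM in Shp2f/f and 127, 125 and 126 CPM in Shp2f/fLysMcre. These fell most on the list, and Mitf, a factor that activates both genes in osteoclasts, had a log2 fold change of -0.61. Autophagy genes rose in 19 of 28 cases and none was called lower in edgeR, in DESeq2 or at an unadjusted p under 0.05, with 3 lower under total counts and 1 without Shp2f/fLysMcre replicate 1. The log2 fold change was 0.39 for Sqstm1 (p62), 0.39 for Ulk1, 0.39 for Rubcn, 0.52 for Pip4p1 and 0.23 for Map1lc3b.

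The letters CACGTG, the E-box that the lysosomal factors TFEB, TFE3 and MITF can bind, were found on either strand in 8 of 27 lysosome genes with a promoter in the same RefSeq table of GRCm38.p6 and in 1854 of 27025 genes (6.86%). Of the 8, Lamp1, Ctsa, Ctsd, Gla and Mcoln1 were called higher and Glb1, Atp6v0b and Atp6v1a lower. The stretches of Lamp1, with 4 matches, and Ctsd, with 2, are shown with the matches in capitals because they are the listed genes with the most matches among those called higher by at least 0.58.
Lamp1, chr8:13159086-13159160, plus strand: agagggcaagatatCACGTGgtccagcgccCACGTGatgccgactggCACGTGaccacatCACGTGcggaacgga
Ctsd, chr7:142387910-142388077, minus strand: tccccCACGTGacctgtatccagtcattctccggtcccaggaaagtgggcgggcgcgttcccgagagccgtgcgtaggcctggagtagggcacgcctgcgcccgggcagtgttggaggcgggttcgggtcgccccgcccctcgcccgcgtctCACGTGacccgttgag
The letters were thus found in genes of both directions.

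**Figure D5:**
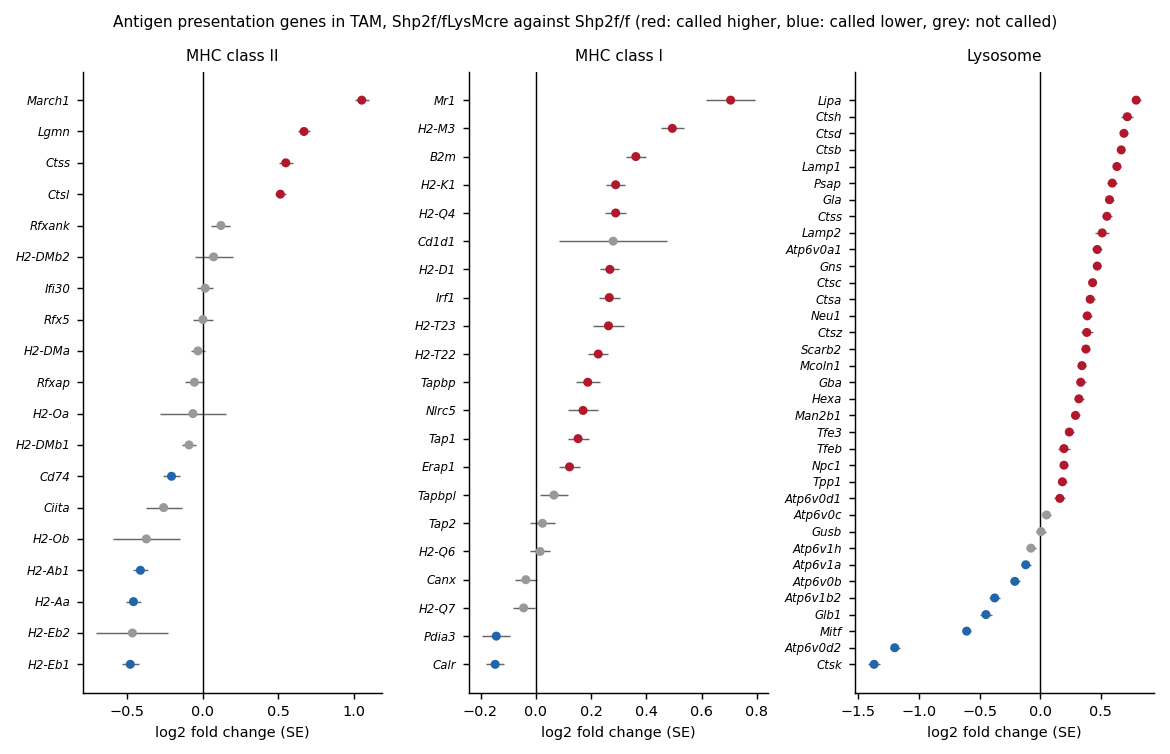
Log2 fold change of each tested member of the MHC class II and class I lists and of 35 of the 36 lysosome genes (x axes differ in range, bars are the SE of the edgeR fit, n = 3 libraries per genotype), with red for called higher, blue for called lower and grey for not called. H2-Aa, H2-Ab1 and H2-Eb1 lie at the lower end of class II, B2m, H2-K1 and H2-D1 are higher in class I, and Ctsk and Atp6v0d2 are lowest among lysosome genes.

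Type I interferon genes rose slightly and almost throughout. Of 29 tested members 27 rose, none was called lower in edgeR, in DESeq2 or at an unadjusted p under 0.05, and the median was 0.25 with a highest value of 0.58. Ifit2, an antiviral protein that binds foreign RNA, was 204, 206 and 204 CPM in the Shp2f/f libraries and 313, 302 and 302 CPM in the Shp2f/fLysMcre libraries. Ifit1 was 101, 107 and 106 CPM in Shp2f/f and 155, 149 and 137 CPM in Shp2f/fLysMcre. Rsad2 (viperin) was 422, 431 and 423 CPM in Shp2f/f and 521, 563 and 562 CPM in Shp2f/fLysMcre. The genotypes did not overlap for these genes, though no rise reached 1.5-fold (log2 0.58) apart from that of Ifit2. Irf7, which carries the interferon signal, had a log2 fold change of 0.30, Tmem173 (STING) had one of 0.29, and Isg15 and Gbp3 were not called. The interferon response element was found before the start site of 10 of the 21 listed genes with a promoter and of 936 of 27025 genes (3.46%). The stretches of Ifit1 and Rsad2 are shown with the element in capitals, as the 2 listed genes with the largest rises that hold it.
Ifit1, chr19:34640760-34640839, plus strand: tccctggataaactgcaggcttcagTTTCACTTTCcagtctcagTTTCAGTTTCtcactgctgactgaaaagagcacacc
Rsad2, chr12:26456528-26456607, minus strand: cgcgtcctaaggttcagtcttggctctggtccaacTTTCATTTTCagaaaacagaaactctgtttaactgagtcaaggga
Of those 10 genes Isg15 and Gbp3 were not called and the other 8 rose, with log2 fold changes of 0.17 to 0.50.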

How the data were processed

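Tumor-associated macrophages sorted at day 15 from MC17-51 tumors were measured by RNA-seq in 3 Shp2f/f and 3 Shp2f/fLysMcre libraries. According to the methods of the study and the submitters' processing notes, poly(A) stranded libraries were sequenced, reads were checked with FastQC (v0.11.5), trimmed with cutadapt (v2.5), aligned to GRCm38 with STAR (v2.7.3a) and counted per gene of Ensembl release 98 with featureCounts of Subread (v1.6.2). The strand setting and the treatment of reads with several matches are not given in the sources used here. Each deposited count is the raw number of reads per gene as the authors made it. A second deposited table of normalized counts, made by the authors with DESeq2 (v1.24.0), was not used.

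The raw counts of the 6 libraries were filtered with filterByExpr (minimum count 10), scaled by TMM and tested in edgeR (v4.0.16, R v4.3.3) with the quasi-likelihood F test and genotype as the only term, two-sided, with Benjamini-Hochberg adjustment over all 14446 genes. Total counts of 28844660 to 38222998 per library left genes of a few CPM measurable. Replicate numbers did not pair the samples. Alternatives were the size factors of DESeq2, total counts, other filters, the Wald test of DESeq2 (v1.42.0), a replicate block and leaving out each library.

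The 44 gene lists, their members and the rule for named genes were chosen with earlier results of these data known. The rule took marked anchor genes of each list and the 2 largest rises and 2 largest falls among called members of at least 10 CPM without overlap, and the text names further members that were chosen after their values were seen. Some members are counted in their lists but not reported here by name. Gene symbols were paired with 99.67% of identifiers. Promoters were 250 bases before the RefSeq start sites of GRCm38.p6, searched on both strands.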

Additional observations from a re-analysis of the deposited data

How the results depend on the processing

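With one library left out in turn, 2952 to 3497 genes were called higher and 3223 to 3820 lower, and with a log2 fold change of at least 0.58 these were 661 to 738 and 1078 to 1298. Called members of the lists numbered 96 to 103 higher and 57 to 62 lower for maturation, 89 to 97 and 49 to 66 for stress, 2 to 5 and 229 to 267 for translation, 79 to 88 and 92 to 132 for metabolism, and 122 to 128 and 28 to 49 for antigen presentation. With total counts no translation gene was called higher and 61 antigen presentation genes were called lower, beside 4 and 35 as reported. Testing every gene with a count above 0 in at least 1 library gave 1116 genes higher by 0.58 or more, beside 707, over 28455 genes tested. The DESeq2 Wald test called 3085 genes higher and 3053 lower. Same-numbered libraries of the genotypes had correlations of deviations of -0.145, 0.0898 and 0.015, so the numbers were not taken as a pairing, and not every library correlated best with its own number. Fitting the number as a replicate block left 3261 genes higher and 3637 lower, and 6812 of them were also called without it. Depth limits genes of about 1 CPM, and the 3 libraries per genotype limit differences that exceed the spread by little. The counts of the proteasome, fatty acid oxidation and class II lists moved as given above. With total counts, members called lower went from 14 to 29, from 8 to 14 and from 4 to 7 in these lists. These counts thus depend on the scaling. The cause of the differences was not tested. Of the named genes that were not called, some changed sign. With total counts the log2 fold changes were -0.065 for Atf4, -0.0797 for Car9, -0.0445 for Ccng1, -0.0626 for Chil3, -0.0592 for Cxcl10, -0.0209 for Eif4ebp1, -0.0483 for Eno1, -0.0543 for Fn1, -0.0384 for Gbp3, -0.0825 for H2-Q6, -0.0679 for Heatr1, -0.0504 for Il6, -0.08 for Ireb2, -0.00587 for Isg15, -0.0948 for Ldha, -0.037 for Mdm2, -0.0679 for Ncoa4, -0.0546 for Psmb10, -0.000699 for Psmb9, -0.0242 for Psme1, -0.082 for Scd1, -0.0582 for Spi1 and -0.0741 for Tap2. With the filter of a count above 0 in at least 1 library it was -0.00807 for Ldha. With the filter of at least 1 CPM in at least 3 libraries it was -0.00363 for Ldha. With one library left out the ranges were -0.0102 to 0.074 for Car9, -0.00171 to 0.105 for Ccng1, -0.0103 to 0.0859 for Chil3, -0.0235 to 0.0432 for Ldha, -0.0122 to 0.0504 for Tap2, -0.0682 to 0.000287 for H2-DMa, -0.0442 to 0.028 for Psmb8, -0.0206 to 0.0705 for Atf4, -0.00562 to 0.0796 for Heatr1, -0.0869 to 0.129 for Il6, -0.0637 to 0.000531 for Aars, -0.0227 to 0.0655 for Ireb2, -0.0193 to 1.41 for Nqo1 and -0.0558 to 0.00938 for Psmb6. None of these genes is given a direction in the text. Named genes that were called and kept their direction but lost the call without at least 1 library were Aldoa, Atp6v1a, Cd74, Cox4i1, Eef1a1, Eif1, Flt3, Fosl1, Fscn1, Hba-a1, Hmgcs1, Itgax, Ly6c2, Mif, Nlrc5, Paip2, Pcna, Pdia3, Pdk2, Psme4, Rpia, Srebf2, Trem2, Trib3 and Xbp1. With total counts the same held for Cd40, Cd86, Csf1r, Csf2ra, Eif4g3, Paip1, Tap1 and Tfeb. In the DESeq2 Wald test it held for Mfge8.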

Other observations

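Genes of the osteoclast and of cell fusion were lower in Shp2f/fLysMcre TAM. These genes were gathered after their values were seen, so no test of the group was made. Of 23 tested 20 were called lower and 1 higher, beside 26.3% and 23.9% of all tested genes, with a median log2 fold change of -1.05. Nfatc1, the master factor of osteoclast differentiation, was 504, 499 and 482 CPM in the Shp2f/f libraries and 238, 238 and 236 CPM in the Shp2f/fLysMcre libraries. Dcstamp and Ocstamp, which are needed for fusion of osteoclasts and of foreign body giant cells, were 66.9, 69.1 and 71.8 CPM in Shp2f/f and 20.2, 21.5 and 19 CPM in Shp2f/fLysMcre and 95.5, 101 and 99.9 CPM in Shp2f/f and 37.4, 35.8 and 33.1 CPM in Shp2f/fLysMcre. Acp5, which encodes the tartrate-resistant acid phosphatase, was 1586, 1630 and 1554 CPM in Shp2f/f and 840.2, 801 and 759.5 CPM in Shp2f/fLysMcre, and Mmp9 was 3923, 4148 and 3928 CPM in Shp2f/f and 1942, 1953 and 1876 CPM in Shp2f/fLysMcre. No library of one genotype reached the range of the other for these genes. Oscar and Siglec15 had log2 fold changes of -1.91 and -1.95, the fusion and matrix genes thus falling with Ctsk, Atp6v0d2 and Mitf of the lysosome list. Ostm1 was the member called higher.

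Receptors that sense microbial and nucleic acid patterns were higher. Of 12 tested Toll-like receptor genes, 11 were called higher, beside 23.9% of all tested genes, and Tlr11 was not called. The family, also described after its values were seen, had a median log2 fold change of 0.495. Tlr4, the receptor for lipopolysaccharide, was 45.5, 50.3 and 50.6 CPM in the Shp2f/f libraries and 89, 104 and 108 CPM in the Shp2f/fLysMcre libraries. Tlr7 and Tlr8, which sense single-stranded RNA, were 102, 114 and 108 CPM in Shp2f/f and 207, 225 and 225 CPM in Shp2f/fLysMcre and 85.6, 94.3 and 90.7 CPM in Shp2f/f and 211, 223 and 240.1 CPM in Shp2f/fLysMcre. Both lie on the X chromosome, where 21.6% of 467 tested genes were called higher and 24.4% lower, and the makeup of the libraries by sex cannot be told apart from the genotype.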
